A study of Mus musculus with 8 samples.

Results

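Calcium stores and calcium channels of the mouse oocyte were followed through 10 genes, found by their symbols among the 46078 genes of the count table: the inositol 1,4,5-trisphosphate (IP3) receptors Itpr1, Itpr2 and Itpr3, the store pump Atp2a2, the store sensor Stim1, the store-operated channel Orai1, the plasma membrane channels Trpm7, Trpv3 and Cacna1h, and the calcium-dependent kinase Camk2g. All 10 were found and all 10 were among the 19241 genes with enough reads to be tested. RNA was measured in fully grown oocytes at the germinal vesicle (GV) stage, with 4 libraries for each of the genotypes CNOT7&8 KO and Zp3-Cre and 100 oocytes per library. CNOT7&8 KO oocytes lack CNOT7 and CNOT8, the paralogous deadenylases of the CCR4–NOT complex, through floxed Cnot7 and Cnot8 alleles recombined by a Cre that is active in growing oocytes only. Control oocytes carried the same Zp3-Cre transgene, so both groups share the Cre. The study's methods give females of C57BL/6J background, 4 weeks old and primed with pregnant mare serum gonadotropin (PMSG), and dibutyryl-cAMP in the medium that keeps oocytes at the GV stage. They do not say how many animals gave the oocytes of a library.

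In a mammalian egg, the fertilizing sperm sets off repeated releases of calcium. A sperm phospholipase C makes IP3, IP3 opens its receptors in the endoplasmic reticulum (ER), the SERCA pump returns calcium to the ER, and channels in the plasma membrane let calcium in to refill the stores. Calmodulin and CaMKII then carry the signal to the proteins that hold the egg in metaphase II. GV oocytes have not yet gone through this, and the parts are stored as mRNA and protein while the oocyte grows.

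The libraries held 8639444 to 44092144 counts. Levels are given as CPM, counts scaled to library size with TMM normalization, and a gene was called a differentially expressed gene (DEG) where the adjusted p was 0.05 or lower and the change 2-fold or more in edgeR's quasi-likelihood test. Among the targeted genes, Cnot8 was at 168 ± 20.0 CPM (SD, n = 4) in Zp3-Cre and 35.2 ± 1.40 in CNOT7&8 KO (log2 fold change −2.25). Cnot7 was at 933 ± 77.3 and 719 ± 70.8 CPM, lower by less than 2-fold (log2 fold change −0.38, adjusted p = 0.0105). For both genes, every KO library lay below every control library, which held for 21.4% of all tested genes. Oocyte markers summed to 18270 to 21260 CPM in Zp3-Cre libraries and 14770 to 17190 CPM in KO libraries. Library 1 of Zp3-Cre and library 4 of CNOT7&8 KO, the deepest of their groups, are called here the libraries that stood apart. The first was the highest or lowest of its group in 7 of the 10 genes and the second in 8. Each gene has 2 such libraries among the 4 of a group, so these counts alone do not set a library apart. Their deviations from the group means correlated with r = 0.372 across genes, which are not independent replicates. It was the highest r of any control library with any KO library, and the 2 were singled out after the data were seen. Results are therefore also given without these 2 libraries.

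Stim1 was the 1 gene of the 10 called higher in CNOT7&8 KO oocytes, and Cacna1h the 1 called lower. Of all genes tested, 23.8% were called higher and 6.56% lower. With the adjusted p alone and no fold threshold, Stim1 and Trpv3 were higher and Itpr2 and Cacna1h lower, that is 2 of 10 in each direction against 31.2% and 24.1% of all genes. The other 6 did not pass the test. Stim1 was the only one of the 10 whose KO libraries all lay above the controls (27.0% of all genes), and Itpr2 and Cacna1h were those whose KO libraries all lay below (21.4%). The median log2 fold change was −0.12 over the 10 genes and 0.12 over all tested genes.

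**Figure D1:**
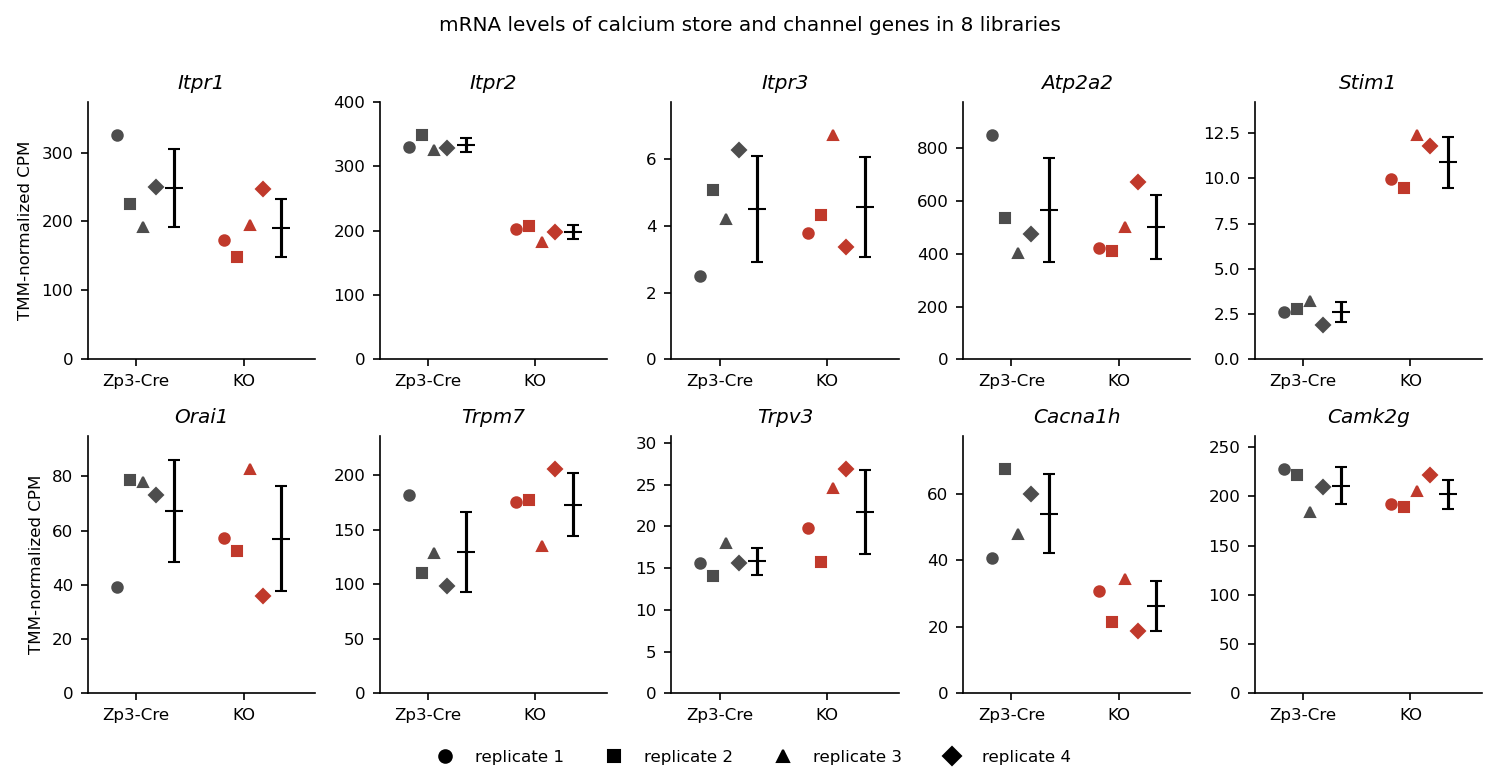
Level of each gene in every library, in TMM-normalized CPM on an axis that starts at 0, with 4 libraries per group and the group mean and SD as a bar beside the points. Stim1 libraries of CNOT7&8 KO sit between 9.44 and 12.4 CPM, all above the 1.89 to 3.20 CPM of Zp3-Cre, and the Itpr2 and Cacna1h groups are also apart, while the other 7 genes overlap.

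Stored mRNAs of oocytes are regulated through short elements in their 3′UTR, where CPEB binds the cytoplasmic polyadenylation element (CPE) and CCR4–NOT shortens the poly(A) tail. The letters TTTTAT, the CPE searched here on the mRNA strand only, were present in the longest annotated 3′UTR of 5 of the 10 genes: 2 copies in Itpr1, 1 in Itpr3, 5 in Atp2a2, 3 in Trpm7 and 3 in Trpv3. Over 15132 tested genes with a 3′UTR, 56.2% held it. One copy per gene is shown, the one nearest to the end of the longest annotated 3′UTR. Where the tail is added in these oocytes was not measured. The CPE is in capitals, the sequence runs 5′ to 3′ on the mRNA strand, and positions are those of GRCm38.
Itpr1, chr6:108550886-108550915, plus strand: gccacgtttgggTTTTATttctttgtcaca
Itpr3, chr17:27121900-27121929, plus strand: gcttcacagggcTTTTATgtttaacttatt
Atp2a2, chr5:122456412-122456441, minus strand: atgtctaatgtaTTTTATtgtaacagacat
Trpm7, chr2:126791748-126791777, minus strand: actaattttaatTTTTATttggaaggagca
Trpv3, chr11:73300146-73300175, plus strand: tacatgttgttaTTTTATatgtactgtgat

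The copy in Atp2a2 lies 72 bases before a polyadenylation signal (AATAAA), that in Trpv3 186 bases that in Itpr1 192 bases and that in Itpr3 287 bases before one. In Trpm7 no AATAAA follows the last CPE within the annotated 3′UTR. An AATAAA also lies before the copy shown in Itpr1, Trpm7 and Trpv3. Atp2a2 had 6.17 copies per kb in an 811-base 3′UTR, and 48.8% of genes with a 3′UTR of similar length (0.8 to 1.25 times) held at least 1. Itpr1 was the only one of the 10 with the letters TGTAAATA, a Pumilio-binding element. Of the tested genes with a 3′UTR, 12.0% held it, and 10.9% of those with a 3′UTR of similar length to that of Itpr1. Itpr2, Stim1, Orai1, Cacna1h and Camk2g had no TTTTAT. For Itpr2, whose 3′UTR of 3372 bases is the longest of the 10, 88.1% of genes with a 3′UTR of similar length held it, and for Cacna1h and Stim1 the shares were 75.7% and 66.2%. These are matches of letters, and other forms of the element were not searched.

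**Figure D2:**
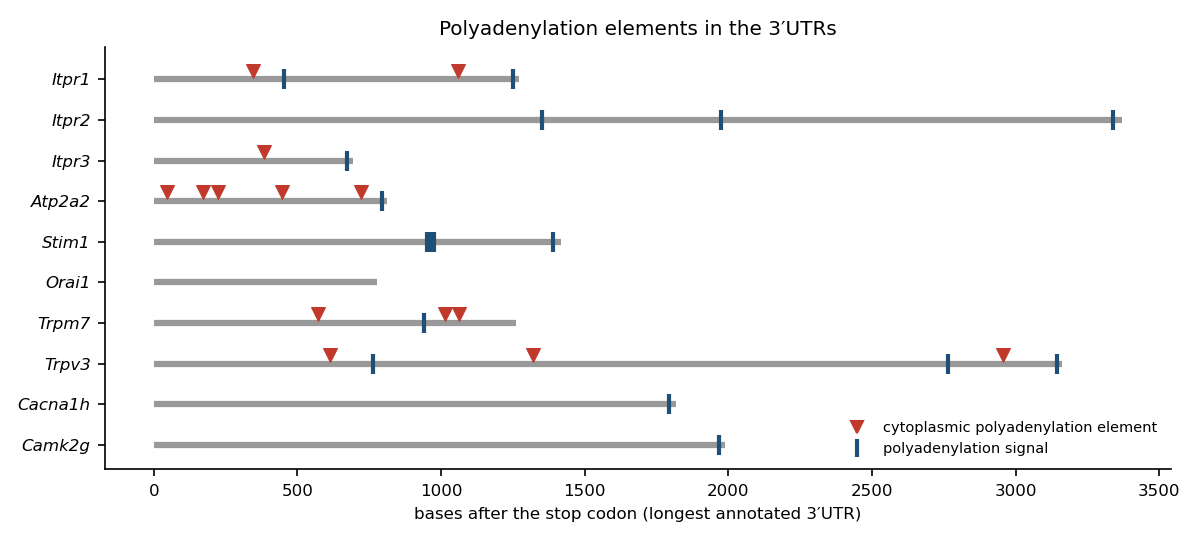
Copies of the cytoplasmic polyadenylation element TTTTAT (triangles) and of the polyadenylation signal AATAAA (bars) along the longest annotated 3′UTR of each gene, in bases after the stop codon. Itpr1, Itpr3, Atp2a2, Trpm7 and Trpv3 hold 1 to 5 triangles, and the other 5 genes hold none.

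IP3 receptors are the channels through which the egg's ER releases calcium, and type 1 is the form known for the calcium oscillations of mammalian eggs. In CNOT7&8 KO oocytes, Itpr2 mRNA fell to 59.4% of the control level. Itpr2 (ENSMUSG00000030287, chr6:146108299-146502223, minus strand) was at 330, 348, 326 and 328 CPM in the 4 Zp3-Cre libraries and at 203, 207, 183 and 198 CPM in the 4 KO libraries. The replicates of both groups were close together and the groups were far apart: 333 ± 10.5 CPM against 198 ± 10.7 (SD, n = 4), a log2 fold change of −0.75 (SE 0.09, adjusted p = 3.46e-05). The exact permutation test of the 2 groups gave a two-sided p of 0.0286, the smallest that 4 against 4 libraries can give. Without the 2 libraries that stood apart, the log2 fold change was −0.76 (adjusted p = 4.77e-06).

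Itpr1 (ENSMUSG00000030102, chr6:108213096-108551109, plus strand) was at 325, 225, 192 and 250 CPM in Zp3-Cre and at 172, 148, 194 and 248 CPM in CNOT7&8 KO. The groups overlapped: KO libraries 3 and 4 were above the lowest control. Means were 248 ± 56.6 and 191 ± 42.5 CPM (SD, n = 4), with a log2 fold change of −0.38 (SE 0.18, 95% interval −0.77 to 0.01) that did not pass the test (adjusted p = 0.0908). The call depended on single libraries: adjusted p was 0.0453 without library 3 of Zp3-Cre, 0.0144 without library 4 of CNOT7&8 KO and 0.0127 without both libraries that stood apart, at log2 fold changes of −0.48, −0.51 and −0.37. GENCODE places the genes Gm44101 and Gm44040 on the opposite strand of Itpr1 exons. These genes were not analysed here, and the strand setting of the counting is not given in the sources used here.

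Itpr3 (ENSMUSG00000042644, chr17:27057304-27122223, plus strand), the third receptor type, averaged 4.51 CPM in Zp3-Cre and 4.56 CPM in CNOT7&8 KO. Zp3-Cre libraries held 2.48, 5.08, 4.22 and 6.26 CPM and KO libraries 3.80, 4.34, 6.72 and 3.37 CPM, with full overlap. Its log2 fold change of 0.03 had a 95% interval of −0.62 to 0.69, at 35 to 109 counts per library. Changes within that interval are not excluded by these libraries. The sign turned to −0.19 without library 1 of Zp3-Cre, −0.21 without library 3 of CNOT7&8 KO and −0.05 without both libraries that stood apart.

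Divided by the length of their exons, the receptors ranked Itpr2, Itpr1 and Itpr3 in both groups. Itpr2 made up 61.9% ± 5.03 of the 3 receptors' CPM per kb in Zp3-Cre and 55.4% ± 5.87 in CNOT7&8 KO (SD, n = 4). Itpr1 made up 36.8% ± 5.36 and 42.5% ± 5.95, and Itpr3 1.39% ± 0.51 and 2.11% ± 0.76. For all 3 the groups overlapped. With the longest transcript as the length, the mean shares of Itpr2 were 53.1% and 46.5% and those of Itpr1 46.0% and 52.1%, so which of the pair was more abundant in KO oocytes depended on the length used.

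Atp2a2 encodes SERCA2, the pump that moves calcium from the cytosol into the ER. Atp2a2 (ENSMUSG00000029467, chr5:122453513-122502225, minus strand) had the highest level of the 10 genes per kb of exon in both groups. It was at 850, 537, 401 and 477 CPM in Zp3-Cre and at 421, 409, 502 and 672 CPM in CNOT7&8 KO. The 2 high values were those of the libraries that stood apart. Its log2 fold change of −0.18 (95% interval −0.66 to 0.30, adjusted p = 0.517) was smaller than the spread between replicates, and its sign changed to 0.12 when counts were scaled by library size only and to 0.09 without library 1 of Zp3-Cre.

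Store-operated entry couples a sensor in the ER membrane, STIM, to a channel in the plasma membrane, ORAI. Stim1 mRNA rose in CNOT7&8 KO oocytes from one of the lowest levels per kb of the 10 genes. Stim1 (ENSMUSG00000030987, chr7:102267806-102437319, plus strand) was at 2.62, 2.76, 3.20 and 1.89 CPM in Zp3-Cre and at 9.99, 9.44, 12.4 and 11.8 CPM in CNOT7&8 KO. Every KO library was above every control library. Means were 2.62 ± 0.54 and 10.9 ± 1.41 CPM (SD, n = 4), 4.16-fold higher, with a log2 fold change of 2.05 (SE 0.20, 95% interval 1.62 to 2.49, adjusted p = 6.13e-06) and an exact permutation p of 0.0286. The values rest on 26 to 98 counts per Zp3-Cre library and 92 to 346 per KO library. Without the 2 libraries that stood apart the log2 fold change was 2.01. Among genes averaging 1 to 10 CPM, as Stim1 does, 35.7% were called higher.

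STIM1 is made by most cell types, so markers of other cells are given beside it. Of 11 tested granulosa or cumulus markers, 4 were called higher in CNOT7&8 KO (Fshr, Inha, Inhba and Nr5a2), against 23.8% of all genes. Cyp19a1 was lower at under 2-fold, and 6 did not pass. Fshr and Inhba average 1 to 10 CPM, where 35.7% of genes were called higher, but Inha and Nr5a2 average more than 10 CPM. In KO library 4, where Stim1 was at 11.8 CPM, Inha was at 4.77 CPM, above 1 of the 4 controls, and Inhba at 1.64 CPM, below all 4. In the same library, Fshr was at 3.34 CPM and Nr5a2 at 132 CPM, each above all 4 controls. The whole granulosa or cumulus list summed to 120 to 156 CPM in Zp3-Cre libraries and 181 to 220 CPM in KO libraries. Within it, mean Nr5a2 went from 56.6 to 122 CPM, Inha from 6.86 to 25.9 CPM and Cyp19a1 from 58.4 to 31.3 CPM. Foxl2, a defining granulosa factor, was at or near 0 in all libraries. Of 3 tested immune or blood markers, 2 were called higher (Ptprc and Cd68), and the sum of the list of 6 went from 0.83 to 1.83 CPM in the controls to 3.15 to 5.36 CPM in KO libraries, with the hemoglobin genes Hbb-bs and Hba-a1 at 0. Their part in the Stim1 difference was not tested. In bulk RNA, a different number of cells of a type and a different amount of RNA per cell cannot be told apart.

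Stim2, the second sensor, was named here after its values were seen. It fell, from 84.5, 93.4, 102 and 88.4 CPM in Zp3-Cre to 59.3, 64.0, 49.7 and 51.5 CPM in CNOT7&8 KO (log2 fold change −0.71, SE 0.12, adjusted p = 0.000343), with no overlap. Stim1 counts per Stim2 count, a ratio within each library that no scaling changes, were 0.03 ± 0.005 in Zp3-Cre and 0.20 ± 0.05 in KO (SD, n = 4), so Stim2 still gave most of the STIM reads in KO oocytes. The ratio was chosen after both differences were seen and has no test of its own.

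Orai1 (ENSMUSG00000049686, chr5:123015074-123030456, plus strand), the pore of store-operated entry, was at 39.3, 78.6, 77.8 and 73.0 CPM in Zp3-Cre and at 57.2, 52.4, 82.6 and 36.1 CPM in CNOT7&8 KO. The lowest library of each group was again the one that stood apart, on the opposite side from Atp2a2. The log2 fold change was −0.23 (95% interval −0.79 to 0.32, adjusted p = 0.452), and it was 0.04 when counts were scaled by library size only and −0.43 (adjusted p = 0.0969) without library 1 of Zp3-Cre. Without both libraries that stood apart it was −0.25 (adjusted p = 0.148). Orai1 shares 7 exon bases with Gm2479 on the opposite strand, which drew 12863 counts over the 8 libraries against 9089 for Orai1. Gm2479 was at 81.5 ± 14.4 and 71.6 ± 9.38 CPM (adjusted p = 0.291).

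Plasma membrane channels linked to calcium entry in mouse oocytes and eggs include TRPM7, a channel fused to a kinase that also passes magnesium, TRPV3, a channel of the vanilloid TRP family, and CaV3.2, the T-type voltage-gated channel encoded by Cacna1h. They did not move together in CNOT7&8 KO oocytes. Cacna1h fell to 48.8% of the control level, Trpv3 was 1.37-fold higher, and Trpm7 was 1.33-fold higher without passing the test.

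Cacna1h (ENSMUSG00000024112, chr17:25374285-25433783, minus strand) was at 40.8, 67.4, 47.9 and 60.0 CPM in Zp3-Cre and at 30.8, 21.4, 34.4 and 18.8 CPM in CNOT7&8 KO. No KO library reached the lowest control. Means were 54.0 ± 11.9 and 26.3 ± 7.46 CPM (SD, n = 4), with a log2 fold change of −1.04 (SE 0.21, 95% interval −1.50 to −0.58, adjusted p = 0.00138) and an exact permutation p of 0.0286. Among genes averaging 10 to 100 CPM, 8.30% were called lower. The difference kept an adjusted p under 0.05 in all 18 alternatives and met the 2-fold threshold in 10 of them. It fell short of 2-fold without library 2 or 4 of Zp3-Cre (log2 fold changes −0.92 and −0.99). The same held without library 2 or 4 of CNOT7&8 KO (−0.94 and −0.90) and with scaling by library size only (−0.76). It also fell short with upper quartile scaling (−0.95), TMM on genes of at least 10 CPM (−0.8) and a filter of 1 CPM in 4 libraries (−0.97). The 158 exon bases that Cacna1h shares with Tpsg1 on the other strand concern a gene with 4 counts in all.

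Trpv3 (ENSMUSG00000043029, chr11:73267388-73300363, plus strand) was at 15.6, 14.1, 18.0 and 15.7 CPM in Zp3-Cre and at 19.8, 15.7, 24.6 and 26.8 CPM in CNOT7&8 KO. The second KO library lay among the controls, and the other 3 lay above them. The log2 fold change was 0.46 (SE 0.18, 95% interval 0.08 to 0.85, adjusted p = 0.0422), and the exact permutation test gave p = 0.0571. The call was lost without library 1, 2 or 4 of Zp3-Cre and without library 3 or 4 of CNOT7&8 KO, and without the 2 libraries that stood apart the value was 0.34 (adjusted p = 0.118).

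Trpm7 (ENSMUSG00000027365, chr2:126791565-126876230, minus strand) was at 182, 110, 129 and 98.2 CPM in Zp3-Cre and at 176, 177, 135 and 205 CPM in CNOT7&8 KO. The overlap came from library 1 of Zp3-Cre, which was above 3 of the 4 KO libraries. The log2 fold change was 0.42 (SE 0.19, 95% interval 0.01 to 0.82) and missed the threshold at an adjusted p of 0.0741. It passed in 8 of 18 alternatives, with 0.62 (adjusted p = 0.0025) without library 1 of Zp3-Cre, 0.56 (adjusted p = 0.0144) without library 3 of CNOT7&8 KO and 0.71 (adjusted p = 0.004) with scaling by library size only.

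**Figure D3:**
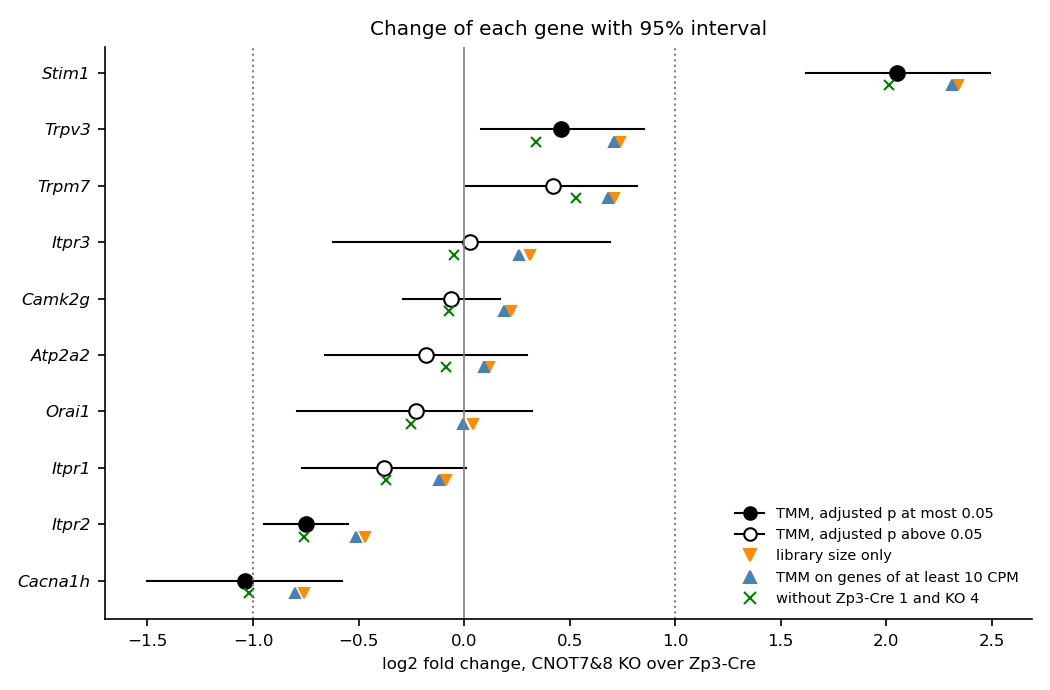
Log2 fold change of each gene, CNOT7&8 KO over Zp3-Cre, with its 95% interval (circles and lines, n = 4 per group), beside the value under 2 other scalings and without the 2 libraries that stood apart. Dotted lines mark 2-fold. Stim1 at 2.05 and Cacna1h at −1.04 are at the ends, and scaling by library size only moves every gene to the right.

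Camk2g encodes the gamma form of CaMKII, the form known to be needed for egg activation in mice. Camk2g (ENSMUSG00000021820, chr14:20734875-20794088, minus strand) was at 227, 222, 184 and 210 CPM in Zp3-Cre and at 192, 189, 205 and 222 CPM in CNOT7&8 KO, with overlapping groups and means of 211 ± 19.1 and 202 ± 14.8 CPM (SD, n = 4). It had the narrowest interval of the genes that did not pass the test, −0.29 to 0.17 around a log2 fold change of −0.06 (adjusted p = 0.64), which became 0.22 with scaling by library size only. That scaling moved the median of all tested genes by 0.29, and TMM computed on genes above 10 CPM moved it by 0.25, so the signs of small differences depend on it.

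Per kb of exon, the order of the 10 genes in Zp3-Cre oocytes was Atp2a2 at 93.1 ± 32.4 CPM per kb, Camk2g at 32.9 ± 2.98, Orai1 at 29.3 ± 8.18, Itpr2 at 22.5 ± 0.71, Itpr1 at 13.6 ± 3.09, Trpm7 at 11.5 ± 3.25, Cacna1h at 5.53 ± 1.22, Trpv3 at 2.71 ± 0.28, Itpr3 at 0.50 ± 0.18 and Stim1 at 0.25 ± 0.05 (SD, n = 4). Libraries overlapped between the neighbours Camk2g and Orai1, Orai1 and Itpr2, Itpr1 and Trpm7, and Itpr3 and Stim1, and were apart between the others. Atp2a2 was above 97.0% of all tested genes and Stim1 above 27.5%. In CNOT7&8 KO oocytes the order differed in 3 places: Trpm7 came before Itpr2 and Itpr1, Trpv3 before Cacna1h, and Stim1, at 1.05 ± 0.14 CPM per kb, before Itpr3. Stim1 and Itpr3 were apart in KO libraries, while Trpm7 overlapped both Orai1 and Itpr2, Itpr2 overlapped Itpr1, and Trpv3 overlapped Cacna1h. With the longest transcript as the length, 8 of 10 ranks were the same in each group: Itpr3 and Stim1 changed places in Zp3-Cre, and Itpr1 and Itpr2 in CNOT7&8 KO.

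**Figure D4:**
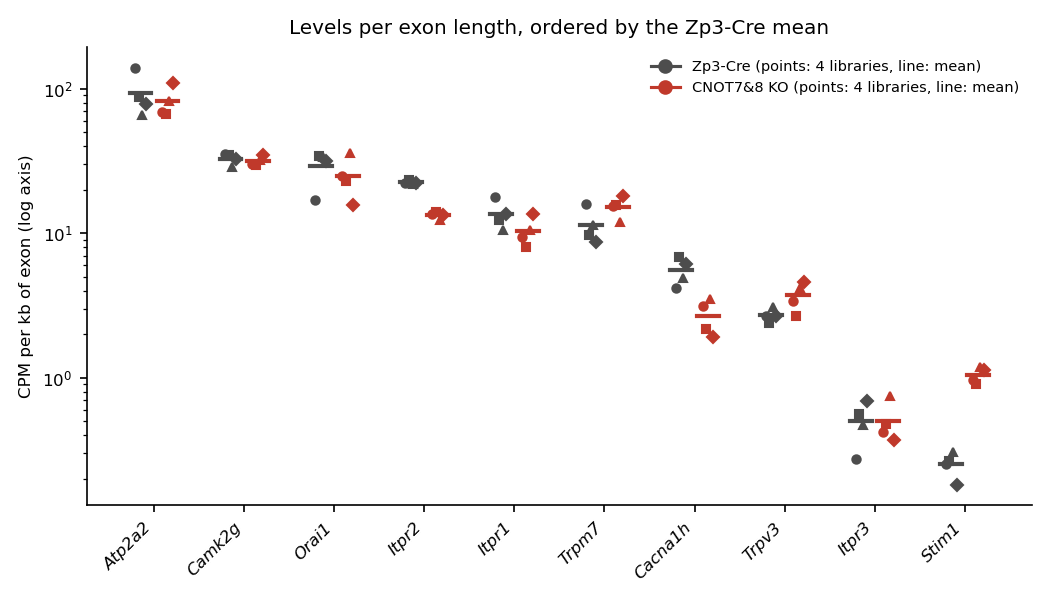
CPM per kb of exon (log axis) of each gene in 4 Zp3-Cre and 4 CNOT7&8 KO libraries, ordered by the Zp3-Cre mean, with points for libraries and lines for means. Atp2a2 is highest at 93.1 CPM per kb, and Stim1 moves from 0.25 to 1.05 CPM per kb.

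The genes whose levels over the 8 libraries were most like those of Itpr1, among 8726 tested genes of at least 10 CPM, were Abl2 (Pearson r = 0.979), Fam84b (0.977) and Syne2 (0.977), on log2 CPM. By deviations from the group means they were Atxn1l (0.996), 4930522H14Rik (0.990) and Gigyf2 (0.989). These are descriptions over the same 8 libraries. Among the 10 genes, Atp2a2 and Camk2g followed Itpr1 (r = 0.938 and 0.869 by deviations from the group means) and Orai1 ran against it (−0.667). By that measure Atp2a2 ranked 102, Camk2g 469 and Orai1 7486 among the 8726 genes, so many genes outside the 10 shared these patterns. The library that was highest for Itpr1 in each group was also highest for Atp2a2 and Camk2g and lowest for Orai1, and in both groups it was the one that stood apart.

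Around these 10 genes, 158 other genes of calcium signalling were listed, of which 156 were found and 140 tested. DEGs were 27 higher and 6 lower in CNOT7&8 KO oocytes, 14 more were higher and 24 lower at under 2-fold, and 69 did not pass the test. Past the adjusted p, with or without 2-fold, 41 were higher and 30 lower. Of all tested genes, 23.8% were DEGs higher and 6.56% lower, and 31.2% and 24.1% passed the adjusted p alone, and the counts of each list below are to be read against these shares. The median log2 fold change of the tested genes was −0.01. With scaling by library size only, 35 were DEGs higher and 2 lower. The most abundant gene of a list is the one with the highest mean CPM, not divided by length. Without the 2 libraries that stood apart the DEGs were 27 higher and 6 lower as well.

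Enzymes and regulators upstream of the IP3 receptors came first. Of 12 tested phospholipases C, which make IP3, 3 were DEGs higher and 2 lower. Plce1, phospholipase C epsilon and the most abundant of them, fell from 537 ± 33.5 to 249 ± 24.2 CPM (log2 fold change −1.11, adjusted p = 4.78e-06), and Plcg2 from 52.9 ± 4.32 to 25.8 ± 2.69 CPM, while Plch1 rose from 3.71 ± 1.59 to 9.71 ± 1.60 CPM. With scaling by library size only, Plce1 and Plcg2 were lower by less than 2-fold (log2 fold changes −0.83 and −0.75), so none of the list was a DEG lower. Plcz1, the sperm phospholipase, was at 0 in all 8 libraries. Of 15 genes that regulate the receptors or break down and modify IP3, 2 were DEGs higher, among them the IP3 kinase Itpkc (0.29 ± 0.18 to 1.98 ± 0.24 CPM), and none was a DEG lower. Ipmk, the most abundant of that list, was at 260 ± 42.1 and 277 ± 27.5 CPM.

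For other release and removal of calcium, 1 of 5 ryanodine receptor and two-pore channel genes was called. Ryr1, the ryanodine receptor of skeletal muscle, was at 0.11, 0.49, 0 and 0.22 CPM in Zp3-Cre and at 4.78, 4.83, 4.99 and 4.83 CPM in CNOT7&8 KO (log2 fold change 4.54, SE 0.48, adjusted p = 1.07e-05). Ryr3, the most abundant of them, was at 16.1 ± 2.95 and 20.2 ± 2.05 CPM and did not pass. Of 9 tested pumps and exchangers beside Atp2a2, 2 were DEGs higher, among them the sodium-calcium exchanger Slc8a1 (0.45 ± 0.24 to 1.38 ± 0.65 CPM), and Atp2c1, the Golgi calcium pump, was at 1091 ± 177 and 967 ± 98.7 CPM without passing.

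In store-operated entry, 2 of 7 tested genes were DEGs higher and 3 were lower at under 2-fold. Stimate, which encodes a STIM-activating protein at contacts of ER and plasma membrane, rose from 4.55 ± 1.66 to 10.1 ± 2.30 CPM (log2 fold change 1.14). Esyt2, a tether at the same contacts and the most abundant of the list, fell from 441 ± 54.6 to 318 ± 24.5 CPM (log2 fold change −0.47), a call that was lost with scaling by library size only (−0.18, adjusted p = 0.1).

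Among other channels, 5 of 18 tested TRP genes were DEGs higher and 1 lower, against 23.8% and 6.56% of all genes. Pkd2, polycystin 2, rose from 4.51 ± 1.51 to 17.3 ± 1.95 CPM and Trpc6 from 0.31 ± 0.16 to 1.07 ± 0.34, and Trpv2, a relative of Trpv3, fell from 10.7 ± 0.76 to 4.30 ± 0.73 CPM. Trpa1, the most abundant of the list, was at 42.1 ± 7.39 and 45.9 ± 2.67 CPM. Of 14 tested subunits of voltage-gated channels, 3 were DEGs higher and none lower. Cacna1g, a second T-type pore subunit, rose from 0.81 ± 0.42 to 3.86 ± 0.98 CPM (log2 fold change 2.17, adjusted p = 0.000318), and Cacna2d2 from 0.40 ± 0.23 to 1.11 ± 0.46 CPM, whereas the most abundant, Cacna2d3, was at 41.3 ± 7.84 and 35.7 ± 3.72 CPM. The third T-type gene, Cacna1i, named after its values were seen, was at 16.1 ± 2.73 and 15.1 ± 1.69 CPM and did not pass.

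Mitochondria take up calcium released from the ER. None of 11 tested genes of that uptake changed 2-fold, but 7 were lower and 1 higher past the adjusted p, against 24.1% and 31.2% of all genes, and their median log2 fold change was −0.67. With scaling by library size only, 5 were lower and 1 higher, with a median of −0.39. Vdac3, an outer membrane channel and the most abundant of them, fell from 332 ± 50.8 to 202 ± 16.1 CPM. The uniporter pore gene Mcu, named after its values were seen, fell from 181 ± 3.43 to 112 ± 12.2 CPM. Lower counts were not particular to this list: of 10 oocyte markers, 6 were lower at under 2-fold, 4 did not pass and none was higher. With scaling by library size only, 3 of these markers were lower and none higher. Of 12 tested calcium-binding proteins of the ER, 1 was a DEG higher, 1 a DEG lower and 4 were lower at under 2-fold. Pdia4, an ER disulfide isomerase, fell from 252 ± 41.5 to 108 ± 7.47 CPM (log2 fold change −1.22, or −0.93 with scaling by library size only), and Canx, calnexin and the most abundant, from 604 ± 91.1 to 343 ± 29.6 CPM.

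Downstream of the calcium signal, 6 of 15 tested genes of calmodulin and its kinases were DEGs higher. None was lower past the adjusted p. Of all genes, 23.8% were DEGs higher, and of genes averaging 1 to 10 CPM, as Camk1, Camk1g and Camk2d do, 35.7%. The list summed to 928 to 1056 CPM in Zp3-Cre libraries and 891 to 966 CPM in KO libraries, so its sum did not rise. Camkk1 rose from 0.15 ± 0.04 to 1.41 ± 0.23 CPM, Camk1 from 0.88 ± 0.17 to 7.26 ± 0.97, Camk1g from 1.62 ± 0.24 to 9.38 ± 1.14 and Camk2d, the delta form of CaMKII, from 1.02 ± 0.56 to 5.21 ± 0.93 CPM (adjusted p = 0.000157). Of 8 tested genes of calcineurin, a phosphatase that calcium and calmodulin switch on, 1 was a DEG higher and 2 lower. Ppp3ca, a catalytic subunit, rose from 13.8 ± 1.85 to 57.7 ± 9.59 CPM (log2 fold change 2.06, adjusted p = 9.76e-07). Both DEGs lower encode inhibitors of calcineurin: Cabin1 fell from 130 ± 19.3 to 48.0 ± 7.22 CPM and Rcan1 from 16.7 ± 1.19 to 7.77 ± 0.52 CPM. Rcan3, of the same inhibitor family as Rcan1 and the most abundant of the list, was at 114 ± 27.0 and 138 ± 16.9 CPM without passing. With scaling by library size only, Rcan1 was lower by less than 2-fold (log2 fold change −0.82). Of 14 tested genes that act in egg activation behind calcium, 1 was a DEG higher, the protein kinase C gene Prkcb (3.01 ± 0.66 to 9.22 ± 0.76 CPM), 1 was higher and 5 were lower at under 2-fold, the latter including Wee2, the egg's inhibitor of CDK1 and the most abundant (1216 ± 134 to 970 ± 76.8 CPM, with the call lost and a log2 fold change of −0.04 when scaled by library size only), and Fbxo43, named after its values were seen, which encodes EMI2 (270 ± 28.9 to 175 ± 7.38 CPM).

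**Figure D5:**
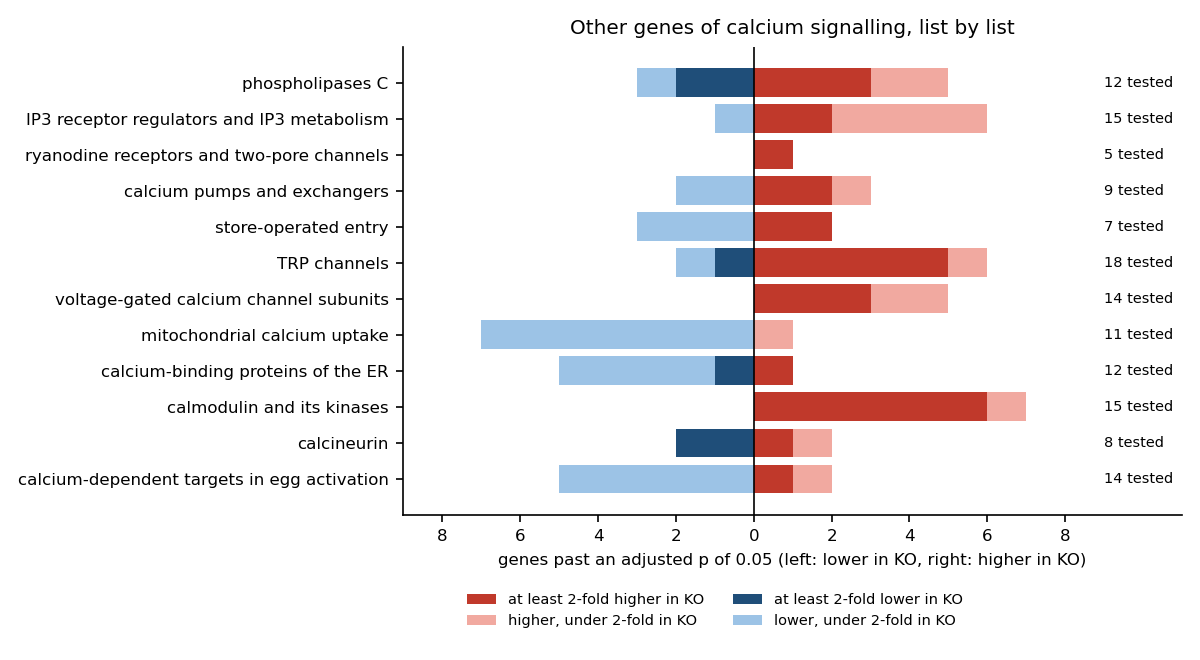
Number of genes past an adjusted p of 0.05 in each of 12 lists of other calcium signalling genes, with genes lower in CNOT7&8 KO to the left of 0 and genes higher to the right, dark where the change was at least 2-fold. Calmodulin and its kinases show 7 genes to the right and none to the left, and mitochondrial calcium uptake 1 to the right and 7 to the left. Of all tested genes, 31.2% were higher and 24.1% lower past that adjusted p.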

How the data were processed

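Per the labels, the authors made ribosome-depleted, stranded libraries of total RNA; the study's methods name an mRNA kit of the same series. Reads of 150-bp pairs were mapped to GRCm38 with STAR 2.6.1d in nf-core/rnaseq, and raw counts per gene were deposited without normalization. The counting tool, annotation and strand setting are not given in the sources used here, so overlapping genes are uncertain.

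Here, the 19241 genes that reached 0.2 CPM in 2 libraries, of 28353 with a count, were tested with edgeR 4.0.16 (R 4.3.3): TMM, quasi-likelihood test, Benjamini-Hochberg adjustment over all tested genes, adjusted p at most 0.05 and fold of at least 2 for a DEG. On simulated data with 200 genes changed 4-fold among 19241, this recovered 165 with 12 false calls. In the measured libraries, 4582 genes were called higher and 1263 lower. Recovery with that many genes differing, and its dependence on the scaling, was not tested. Fold changes are from the fit; 3 counts, the floor, were 0.068 to 0.347 CPM. Exact permutation tests were two-sided over 70 assignments. Libraries are separate samples per the labels, but nothing says that they came from separate animals, so p-values measure the spread between these samples. Same-numbered libraries had no clear shared deviation from their group means, which cannot show whether they were prepared together.

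Exon lengths, positions and 3′UTRs came from GENCODE vM21 (GRCm38). The 10 genes and the lists were chosen with earlier results of these data known. The text names all 10 genes, up to 4 DEGs per list and direction with the largest change among those of at least 1 CPM, and each list's most abundant gene, with additions marked. In the table, Stimate is listed as Tmem110. Of the 158 listed genes, 156 were matched to 1 row. Some genes that this rule names are not reported here. Alternatives were the edgeR exact test, DESeq2 1.42.0, 4 scalings, 2 filters, a replicate block and leaving out libraries. No protein sequence was used here.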

Additional observations from a re-analysis of the deposited data

Results flagged for a closer look

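One value lay far from its group. Orai1 in library 1 of Zp3-Cre was at 39.3 CPM, while the other 3 controls were between 73.0 and 78.6 CPM. Without this library, the log2 fold change of Orai1 went from −0.23 to −0.43 (adjusted p = 0.0969), still not past the threshold. Without library 4 of CNOT7&8 KO, the lowest of its group, it was −0.059 (adjusted p = 0.856), and without both −0.25 (adjusted p = 0.148). The gap was 0.856 of the group's range, above Dixon's 95% critical value for 4 samples. Chance flags about 1 in 20 groups, and 20 groups were screened.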

How the results depend on the processing

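Over 18 alternatives per gene, Stim1 stayed a DEG (log2 fold change 1.94 to 2.34) and Itpr2 stayed past the adjusted p (−0.76 to −0.47), as did Cacna1h (−1.19 to −0.76). The count of 1 gene called lower became 0 with library size only, upper quartile scaling, TMM on genes of at least 10 CPM and a filter of 1 CPM in 4 libraries, and was 0 to 1 when each library was left out. With no fold threshold, 2 genes were higher and 2 lower. For the listed calcium genes, 16 were called higher with the 1 CPM filter, which tests fewer genes, and 41 higher and 30 lower with no fold threshold. With library size only, 35 were called higher and 2 lower, and with TMM on genes of at least 10 CPM 34 and 2. Leaving out each library gave 23 to 28 higher and 5 to 7 lower.

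With library size only, the log2 fold change became 0.12 for Atp2a2, 0.04 for Orai1, 0.22 for Camk2g and 0.71 for Trpm7. With TMM on genes of at least 10 CPM it was 0.094 for Atp2a2, 0.19 for Camk2g and 0.68 for Trpm7, and with upper quartile scaling 0.038 for Camk2g and 0.52 for Trpm7. Trpm7 was at 0.45 with no filter and 0.49 with the 1 CPM filter, past the threshold in both, and Camk2g at 0.0087 with the latter. These 3 scalings move the median of all genes, by 0.10 to 0.29. Leaving out each library gave −0.51 to −0.22 for Itpr1, −0.21 to 0.23 for Itpr3, −0.32 to 0.087 for Atp2a2, −0.46 to −0.059 for Orai1, 0.30 to 0.62 for Trpm7 and 0.36 to 0.61 for Trpv3. Without library 1 of Zp3-Cre and library 4 of CNOT7&8 KO, an alternative chosen after seeing the data, Itpr1 was at −0.37 and Trpm7 at 0.53, both past the threshold, Trpv3 at 0.34, not past it, and Itpr3 at −0.05; the cause was not tested.

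Same-numbered libraries correlated at −0.072, −0.042, 0.11 and −0.121 in their deviations, so no clear shared deviation was seen. Whether they were collected or prepared together cannot be told from this. Not every library correlated best with its own number. With the replicate block, the calls were 1 higher and 1 lower among the 10 genes and 26 higher and 6 lower among the listed genes, and Trpv3 was at 0.43 (adjusted p = 0.0595), no longer past the threshold. The fewest counts lay behind Stim1 (26 to 346 per library) and Itpr3 (35 to 109).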
